A study of Rattus norvegicus with 2 samples.

Results

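The cells described here are myeloid cells of the fetal rat colon that carry lysozyme transcripts but almost no C1q. They were chosen from measured values of the same cells, so those values are given as a description. From barcodes that held 500 genes or more and drew no more than 20% of their transcripts from mitochondrial genes, a cell counted as a member when it held at least 5 Lyz2 transcripts, at least 1 of Tyrobp and of Fcer1g, fewer than 3 of C1qa, C1qb and C1qc together, and transcripts of fewer than 4 of 7 epithelial genes (Epcam, Cldn7, Cldn4, Cldn3, Elf3, Vil1 and Lgals4). This gave 368 of 14115 cells, 209 of 7236 (2.89%, exact 95% interval 2.51 to 3.30) in the maternal obesity library and 159 of 6879 (2.31%, 1.97 to 2.69) in the control library, a ratio of shares of 1.25 (1.01 to 1.55). With only members that held no transcript of the 7 epithelial genes counted (45 and 16 cells), still as a share of all 7236 and 6879 cells, that ratio was 2.67. The study set fetuses of rats with obesity during pregnancy against fetuses of control rats. Both groups were WT by genotype, the tissue was the colon at embryonic stage E19.5, and each group was a single droplet library (replicate 2 for maternal obesity, replicate 1 for control). Transcripts were counted as unique molecular identifiers (UMIs). The sources used here do not say how many fetuses, of how many dams, were pooled for a library, nor how obesity was brought about. With 1 library per group no comparison could be tested, so differences are between 2 libraries, and every interval printed covers counting error only.

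Monocytes are made in the fetal liver and bone marrow and enter tissues, where some become dendritic cells or macrophages. Neutrophils arise from a related progenitor and fill their granules in steps: myeloperoxidase and other primary granule proteins come first, lactoferrin, cathelicidin and the collagenase Mmp8 follow in secondary granules, and the calprotectin subunits S100a8 and S100a9 fill the cytoplasm of mature cells. Both lineages make lysozyme and release interleukin 1 and chemokines that draw further leukocytes. C1q, the starter of the classical complement pathway, is made by tissue macrophages, and its absence separates the cells here from the resident macrophages of the gut wall.

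Members were shallower than other cells and differed in depth between the libraries. Their median was 7243 UMIs per cell in maternal obesity and 5172 in control. Cells that met the same rule but with at least 3 C1q UMIs are called C1q cells below. These 138 maternal obesity and 71 control cells had medians of 10438 and 9193. Cells with at least 4 of the 7 epithelial genes and no UMI of Tyrobp or Fcer1g are called epithelial cells below. Their medians were 21088 and 14352. The 2 libraries shared 130 barcodes, and no member was a member in both. A doublet caller marked 134 cells (1.85%) in maternal obesity and 60 (0.872%) in control, well under the expected 7.77% and 7.12%, so many doublets will remain, and it marked 8 members in maternal obesity and 1 in control. Haemoglobin transcripts, which leak from lysed red cells, were uneven: Hbb was seen in 207 of 209 members in maternal obesity and 70 of 159 in control. Epithelial transcripts were uneven the other way, with a summed level over 12 epithelial genes outside the rule of 235 UMIs per 1000000 (CPM) in maternal obesity members and 536 CPM in control members. The part that depth, haemoglobin or epithelial transcripts play in the differences below was not tested.

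At the edges of the rule the cells were few. In maternal obesity 7 otherwise eligible cells with 3 Lyz2 UMIs and 4 with 4 stayed out, while 4 members held 5. In control 2 cells with 3 stayed out and 4 members held 5 and 3 held 6. The median member held 77 Lyz2 UMIs in maternal obesity and 39 in control. C1q was at 0 in 203 of 209 and 155 of 159 members, and only 3 cells per library missed the rule with exactly 3 C1q UMIs. Among members, 45 in maternal obesity and 16 in control had no UMI of the 7 epithelial genes, and 22 and 37 had UMIs of 3 of them, the highest number allowed.

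The 6 genes that mark these cells were all present in both libraries, and their levels describe the choice of cells rather than a result. Lyz2, which encodes lysozyme M and served in the rule, had a lowest, median and highest level per cell of 2.08, 127 and 440.2 UMIs per 10000 in maternal obesity cells and 3.94, 102 and 414 in control cells. Fcnb, which encodes ficolin B, a lectin of monocytes and neutrophil granules, had 0, 15.2 and 86.7 UMIs per 10000 in maternal obesity cells and 0, 10.7 and 145 in control cells. Fcnb was seen in most members of both libraries, but in 0 of the 59 cells of the neutrophil-like sub-cluster described below. Il1b, the cytokine interleukin 1 beta, had 0, 23.3 and 157 UMIs per 10000 in maternal obesity cells and 0, 36.7 and 367 in control cells. Ccl3, a chemokine for monocytes and neutrophils, had 0, 5.58 and 688 UMIs per 10000 in maternal obesity cells and 0, 26.7 and 251 in control cells. The ranges of both genes overlapped, with the higher maximum in control for Il1b and in maternal obesity for Ccl3, while both medians were lower in maternal obesity. The maternal obesity cell with the most Ccl3 held 532 of the 3547 Ccl3 UMIs of that library's members. G0s2, a lipase inhibitor that is abundant in neutrophils, had 0, 3.04 and 189 UMIs per 10000 in maternal obesity cells and 0, 23.1 and 246 in control cells. Cxcl2, a neutrophil chemokine, had 0, 7.03 and 238 UMIs per 10000 in maternal obesity cells and 0, 23.5 and 679.6 in control cells. For both genes the maternal obesity median lay below the control median, and each library held cells at 0 and cells well above the median.

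**Figure D1:**
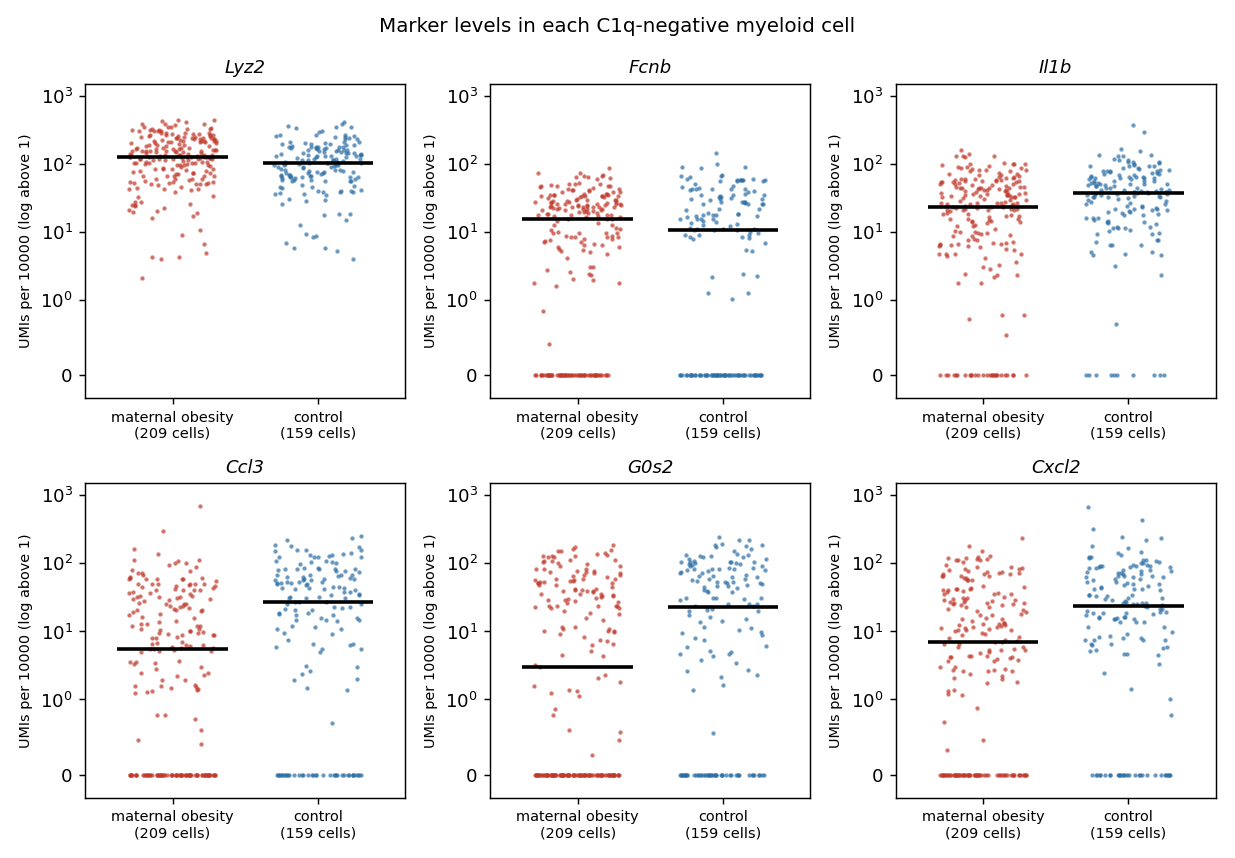
Level of the 6 marker genes in each C1q-negative cell, in UMIs per 10000 on an axis that is logarithmic above 1, with 209 maternal obesity cells left of 159 control cells in each panel and a black line at the median. Lyz2 has UMIs in every cell by the rule, and the medians of Ccl3 (5.58 and 26.7), G0s2 and Cxcl2 lie lower in maternal obesity than in control while the points overlap.

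Depth moves such counts, so shares of cells with a UMI were also taken after every cell was thinned to 2000 UMIs, which left 196 maternal obesity and 140 control members. Cxcl2 was then seen in 58.7% (51.4 to 65.6) of maternal obesity members and 81.4% (74.0 to 87.5) of control members, Ccl3 in 54.1% (46.8 to 61.2) of maternal obesity members and 74.3% (66.2 to 81.3) of control members, and Il1b in 75.0% (68.3 to 80.9) of maternal obesity members and 90.0% (83.8 to 94.4) of control members. Without thinning these shares were 71.3% and 81.1% for Cxcl2, 66.5% and 76.7% for Ccl3 and 87.1% and 93.7% for Il1b. The intervals after thinning cover counting error only, and cells of 1 library are not replicates, so these intervals give no test between the groups. The share for G0s2 was 46.9% (39.8 to 54.2) of maternal obesity members and 63.6% (55.0 to 71.5) of control members, and for Fcnb 70.9% (64.0 to 77.2) of maternal obesity members and 64.3% (55.8 to 72.2) of control members, the only one of the 5 markers outside the rule that was seen in a larger share in maternal obesity. Epithelial cells should lack these genes, but they were chosen without Tyrobp and Fcer1g UMIs, so stray myeloid transcripts were partly selected against. They showed Cxcl2 in 0.569% and 2.28% after the same thinning, Ccl3 in 0% in both libraries, Il1b in 0.126% and 0%, G0s2 in 0.379% and 0.228%, and Fcnb in 0% in both.

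Beside the C1q cells of the same library, the members carried neutrophil and calprotectin transcripts and held few macrophage transcripts. Both populations come from the same rule and are split on C1q, so this is a description with no test. Of 6406 genes with at least 20 UMIs over both populations in each library, 503 (7.85%) were at least 1.5-fold higher in members in both libraries and 511 (7.98%) at least 1.5-fold lower. All 9 measured secondary and tertiary granule genes were higher in members in both libraries, with a median log2 ratio of 5.70 in maternal obesity and 5.82 in control (5.59 and 5.96 with sums of 0 set to 3 UMIs). The list includes Lyz2, a gene of the rule. The maternal obesity median of 5.70 is the value of Np4, with 0 UMIs in C1q cells and 26 in members, 92.3% of them in 1 cell. Much of the higher granule gene level came from the 59 neutrophil-like cells described below, which held 96.5% of the Lcn2, 89.3% of the Mmp8 and 75.3% of the Camp UMIs of members. In the 2 largest other sub-clusters together, maternal obesity members held 2 UMIs of Mmp8 and 0 of Lcn2, against 4 and 1 in C1q cells. Mature neutrophil genes were higher in 11 of 13, with medians of 2.56 and 3.85, and S100 and annexin genes in 9 of 12, with medians of 2.39 and 2.27. Both lists had their highest summed level in the neutrophil-like cells, at 202212 and 200536 CPM over both libraries. In the largest sub-cluster they summed to 8458 and 7005 CPM.

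Named genes followed this split. S100a9 was at 8614 CPM in members and 202 CPM in C1q cells of the maternal obesity library, 42.7-fold higher (38.4 to 47.6). In the control library it was at 14380 CPM in members and had 0 UMIs in C1q cells, at least 3548-fold higher against a floor of 3 UMIs over all C1q cells of the library. Summed over members, S100a9 was far higher than in C1q cells in both libraries. The neutrophil-like sub-cluster S2, described below, held 10562 of the maternal obesity UMIs and 11662 of the 14091 control UMIs. S100a9 was seen in 50.2% of maternal obesity and 54.1% of control members. In the largest sub-cluster, S0, its maternal obesity level lay below that of C1q cells. Camp, the antimicrobial cathelicidin, was at 678 CPM in members and 3.50 CPM in C1q cells in maternal obesity, and at 824 and 1.35 CPM in control. Chi3l1, a chitinase-like granule protein, was 33.4-fold higher (22.8 to 51.0) in maternal obesity members and 62.1-fold higher (26.4 to 192) in control members. It was seen in 76.1% and 69.2% of members, so it was not a gene of a few cells. The others named by the same rank were Stfa3, Stfa2l1 and Stfa2, stefins whose near-identical copies make the counts uncertain, with S100a8, Mmp8, Ifitm6, Hp and Lcn2.

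Macrophage genes other than C1q were lower in members in 14 of 15, with a median log2 ratio of -4.14 in maternal obesity and -4.25 in control. Lyve1, a hyaluronan receptor of resident macrophages, was at 12.6 CPM in members and 616 CPM in C1q cells of maternal obesity, and 15.3 and 838 CPM in control. Pf4, a chemokine of macrophages and platelets, was at 10.3 CPM in members and 504 CPM in C1q cells of maternal obesity, and 19.4 and 436 CPM in control. F13a1, the A subunit of coagulation factor XIII, is on the monocyte list and not the macrophage list. F13a1 stood at 0.574 CPM in members and 407 CPM in C1q cells of maternal obesity, and 7.14 and 555 CPM in control. The genes named with them were Ltc4s, Mmp12, Ms4a4e, Selenop, Ms4a7, Trem2, Plau, Hpgds and Gas6, each lower in members in both libraries. Of 16 measured monocyte genes 6 were higher and 5 lower in members in both libraries. Their median log2 ratio was 0.11 in maternal obesity and -0.48 in control, so as a list they did not set members apart from C1q cells. In total 5 of 8 measured dendritic cell and MHC class II genes were also lower in members, with Cd74, the invariant chain of MHC class II, at 4584 CPM in members and 11026 CPM in C1q cells of maternal obesity, and 3756 and 8559 CPM in control. Platelet genes summed to 8.03 and 2.04 CPM in members. The eosinophil list summed to 72.3 CPM in maternal obesity and 75.5 CPM in control. Its granule genes Epx and Prg2 were at 0 in both libraries, and Rnase2 of the same list is described with the sub-clusters below. Mast cell and basophil genes summed to 14.3 and 16.3 CPM.

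**Figure D2:**
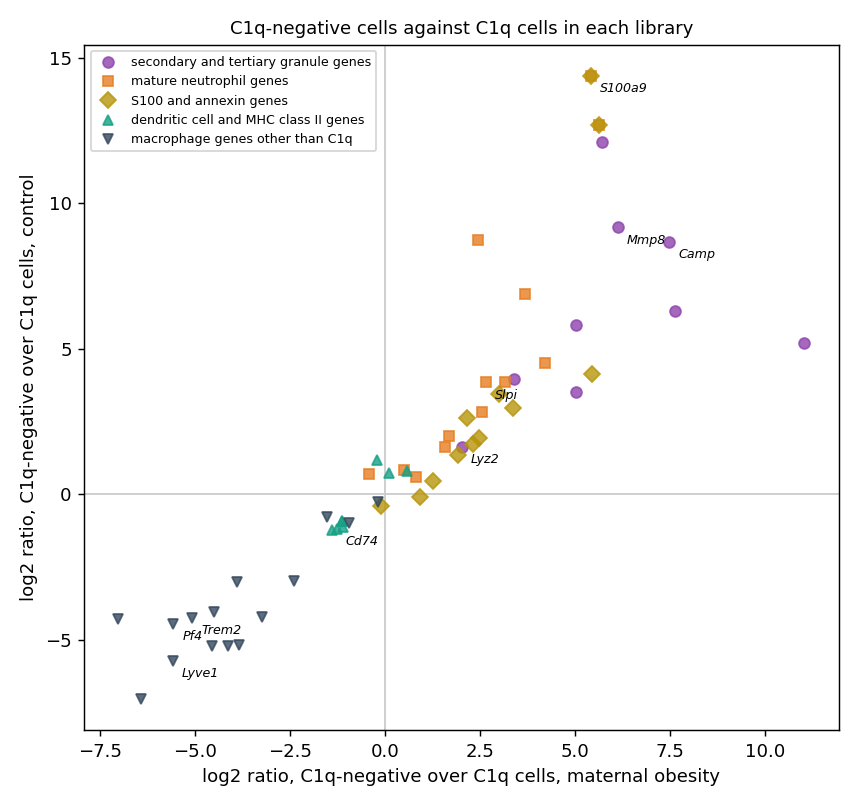
Log2 ratio of members over C1q cells in the maternal obesity library (horizontal axis) and in the control library (vertical axis), 1 point per measured gene of 5 lists, with 0.5 UMI added to each sum. Secondary granule genes (median 5.70 and 5.82) and S100 genes lie to the upper right, macrophage genes (median -4.14 and -4.25) to the lower left, and points of genes with 0 UMIs in C1q cells, such as S100a9 in control, depend on the added 0.5 UMI.

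The members fell into 6 sub-clusters (S0 to S5), whose leading genes describe how the cells vary and are not findings. S1 (61 maternal obesity and 33 control cells) was monocyte-like, led by Rnase2, Vcan, S100a6 and Fn1. Vcan and Fn1 are on the monocyte list, while Rnase2, the first leading gene of S1, is on the eosinophil list. S2 (23 and 36 cells) was neutrophil-like, led by Lcn2, Olfm4, Mmp8, Retnlg and Mmp9, and its cells were shallow, with a median of 2292 UMIs. S3 (27 and 13 cells) was like MHC class II dendritic cells, led by RT1-DOa, RT1-Db1 and RT1-Bb, with the macrophage gene Lyve1 among its leading genes too. S0 (73 and 54 cells) stayed unnamed, led by Hmox1, Gjb2, Treml4, Hpgd and Tgm2. Of its Hmox1 UMIs, 87 of 109 in maternal obesity and 426 of 515 in control lay in 1 cell of each library. S4 (14 and 21 cells) was led by cell-cycle genes such as Cdca2, Esco2 and Spc25 and also stayed unnamed, with a median of 14595 UMIs. S5 (11 and 2 cells) was led by the fibroblast genes Sulf1, Aebp1 and Mgp, and the doublet caller marked 5 and 1 of its cells. By these markers a monocyte-like and a neutrophil-like group were both present, and the sub-cluster with the most cells, S0, was named as neither. Among its 10 leading genes S0 had 0 of the monocyte list, and S1 had 2. The summed level of that list was still highest in S0, at 13494.5 CPM over both libraries, against 10924.5 CPM in S1.

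Calprotectin levels differed widely among the sub-clusters. S100a9 was at 139803 CPM in maternal obesity cells and 135411 CPM in control cells of S2, at 3237 CPM in maternal obesity cells and 7657 CPM in control cells of S1, and at 84.6 CPM in maternal obesity cells and 125 CPM in control cells of S0. It had no UMI in S3. Mmp8 was at 3389 CPM in maternal obesity cells and 4296 CPM in control cells of S2 and had 1 UMI in all of S0. Fcnb showed the reverse, with 0 UMIs in S2 and 3116 CPM in maternal obesity cells and 3765 CPM in control cells of S1. Csf1r, the receptor that monocytes need for survival, was at 869 CPM in maternal obesity cells and 618 CPM in control cells of S0 and 106 CPM in maternal obesity cells and 116 CPM in control cells of S2. G0s2 was at 4848 CPM in maternal obesity cells and 6736 CPM in control cells of S0, at 1310 CPM in maternal obesity cells and 4076 CPM in control cells of S2, and at 0 in S3. Cd74 was at 23813 CPM in maternal obesity cells and 25808 CPM in control cells of S3 and 375 CPM in maternal obesity cells and 78.7 CPM in control cells of S1.

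**Figure D3:**
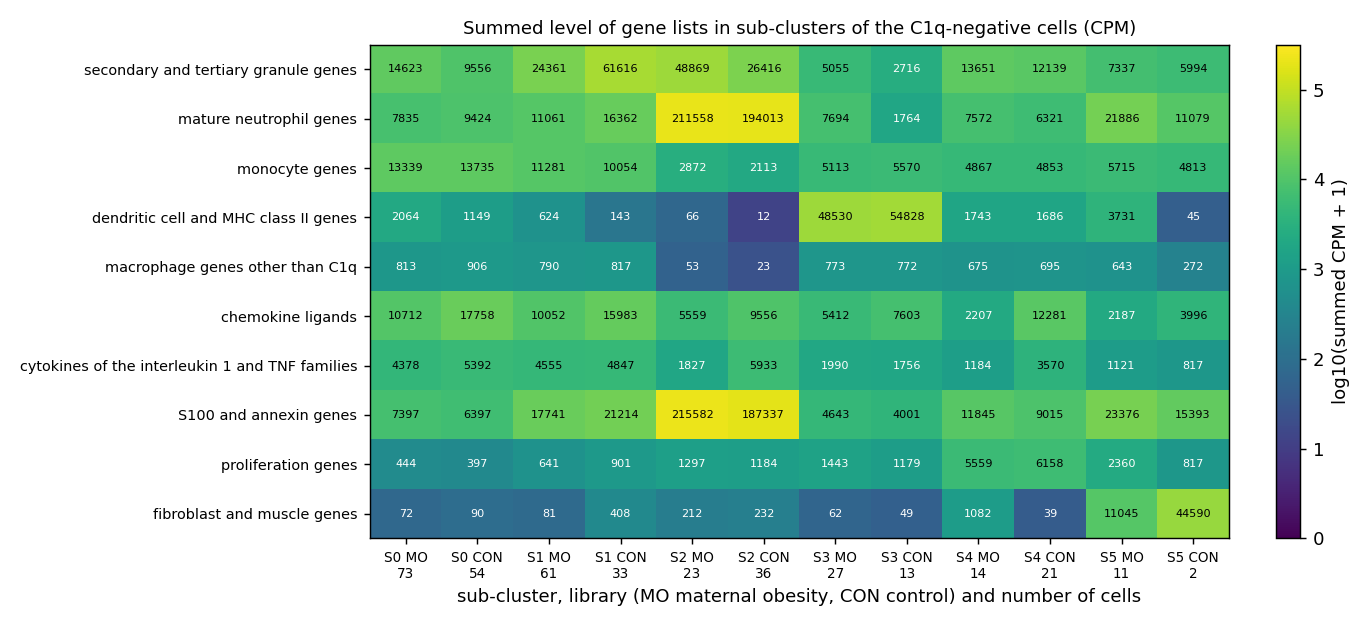
Summed level of 10 gene lists in each of 6 sub-clusters, with the maternal obesity (MO) column left of the control (CON) column, the number of cells under each column, CPM printed in each field and colour on a log10 scale. Neutrophil and S100 genes peak in S2 and MHC class II genes in S3, and chemokine ligands are lower in maternal obesity than in control in S0 to S4; 1 control cell with 3428 UMIs of RatNP-3b lies behind the high granule value of the control field of S1.

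Some single cells held genes of both the neutrophil and the monocyte list. After thinning to 2000 UMIs, at least 3 of 28 neutrophil genes (Lyz2 left out) were seen in 76.0% (69.4 to 81.8) of maternal obesity members and 72.9% (64.7 to 80.0) of control members, against 16.7% and 15.5% of C1q cells and 0% and 0.0326% of epithelial cells. At least 3 of 16 monocyte genes were seen in 86.2% and 82.1% of members, and in 94.9% and 81.7% of C1q cells. Meeting the monocyte set thus does not separate members from C1q cells. Both sets were met together in 127 of 196 maternal obesity members and 79 of 140 control members. With each set met by most members, many joint cells would arise without any link, and a link was not tested. At least 3 MHC class II or dendritic cell genes were seen in 19.9% (14.5 to 26.2) and 12.9% (7.80 to 19.6) of members, and together with the neutrophil set in 10 and 2 cells. With cells thinned to 1000 UMIs the neutrophil set was met by 59.3% of maternal obesity and 65.8% of control members, the reverse order. The neutrophil and monocyte sets were then met together in 92 of 209 maternal obesity and 62 of 158 control members. Proliferation genes reached 3 in 12.8% (8.43 to 18.3) and 20.7% (14.3 to 28.4) of members.

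Between the libraries, maternal obesity members had lower levels of inflammatory chemokines than control members. Over all genes with at least 20 UMIs (7838), 1707 (21.8%) were at least 1.5-fold higher in maternal obesity members and 608 (7.76%) at least 1.5-fold lower, with a median log2 ratio of 0.12. Scaling by trimmed mean of M values (TMM) changed this to 1314 higher and 905 lower, and the median of ratios to 1292 and 927, shifting every log2 ratio by -0.13 and -0.14. Of 20 chemokine ligands 13 were measured, 2 of them 1.5-fold higher and 7 lower, with a median log2 ratio of -0.61. Their summed level was 7454 CPM in maternal obesity and 13782 CPM in control, a ratio of 0.541 (0.528 to 0.554). After thinning, at least 3 chemokine ligands were seen in 43.4% (36.3 to 50.6) of maternal obesity members and 64.3% (55.8 to 72.2) of control members. Epithelial cells gave 3.35% and 6.22%.

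Ccl3 was at 2035 CPM in maternal obesity and 4456 CPM in control, a ratio of 0.457 (0.437 to 0.478). Cxcl2 was at 2309 CPM in maternal obesity and 4823 CPM in control, a ratio of 0.479 (0.459 to 0.499). Cxcl1, which like Cxcl2 attracts neutrophils through Cxcr2, was at 515 CPM in maternal obesity and 1621 CPM in control, a ratio of 0.318 (0.293 to 0.345). All 3 were lower in the maternal obesity library, and lower in each of S0 to S4, although in S2 Cxcl1 rests on 1 and 5 UMIs. In S0 Cxcl1 was at 495 against 2448 CPM for maternal obesity against control, Cxcl2 at 3286 against 7335 CPM and Ccl3 at 3492 against 5818 CPM. In S1 these were 1031 against 1457 CPM, 3137 against 3779 CPM and 2689 against 7509 CPM. The gap for Cxcl2 was smaller in S1 than in S0, and S2 had nearly equal Ccl3 at 1297 against 1417 CPM. In the 45 maternal obesity and 16 control members without any of the 7 epithelial genes, the log2 ratio of Ccl3 was only -0.09, against -1.13 in all members, and that of the summed chemokines was -0.68, against -0.89. The log2 ratio of G0s2 was 0.048 in those cells, against -0.61 in all members.

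Other chemokines were uneven. Ccl6, a monocyte chemokine of rodents, was at 522 CPM in maternal obesity and 795 CPM in control, a ratio of 0.657 (0.596 to 0.724), and Cxcl10, an interferon-induced chemokine, at 49.3 CPM in maternal obesity and 86.7 CPM in control, a ratio of 0.569 (0.417 to 0.777). Cxcl16 stood at 13.2 against 52.0 CPM and Ccl9 at 17.2 against 32.7 CPM for maternal obesity against control. Ccl2, the main monocyte attractant, was at 1207 CPM in maternal obesity and 1621 CPM in control, a ratio of 0.745 (0.698 to 0.795), but 32.8% of its control UMIs came from 1 cell, and with each cell weighted equally its log2 ratio was 0.15 instead of -0.43. Cxcl3 was at 199.7 CPM in maternal obesity and 197 CPM in control, but its ratio was 1.88 (1.29 to 2.81) in S0, 1.52 (1.05 to 2.27) in S1, 10.9 (4.11 to 40.7) in S3 and 0.0776 (0.0344 to 0.154) in S4. Ccl4 was at 499.7 CPM in maternal obesity and 30.6 CPM in control, yet 98.3% of its maternal obesity UMIs and 93.3% of its control UMIs lay in 1 cell of each library, both in S0. Those UMIs describe single cells. After thinning, Cxcl1 was seen in 14.3% of maternal obesity and 35.7% of control members, against 7.26% and 14.5% of epithelial cells, and Cxcl10 in 6.12% and 13.6% of members, against 14.5% and 21.6% of epithelial cells. The Cxcl10 share lay below that of epithelial cells in both libraries, so its values in members are not read as a difference.

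The C1q cells of the same libraries had the same direction for these chemokines. Their summed chemokine level was 8188 CPM in maternal obesity and 19500 CPM in control, and the median log2 ratio of the same genes was -1.04. Cxcl1 was at 1152 CPM in maternal obesity and 3854 CPM in control, Cxcl2 at 3587 CPM in maternal obesity and 7380 CPM in control and Ccl3 at 945 CPM in maternal obesity and 3246 CPM in control. Cxcl1 was lower in epithelial cells too, at 83.5 CPM in maternal obesity and 156 CPM in control. Lower chemokine levels in the maternal obesity library were thus seen in C1q-negative and C1q cells alike.

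Chemokine promoters are classic carriers of kB sites, to which the NF-kB factors bind, and the promoters of Cxcl1, Cxcl2 and the NF-kB inhibitor gene Nfkbia are shown because Cxcl1 and Cxcl2 were among the lower chemokines and Nfkbia encodes the feedback inhibitor of the same factors. The 200 bases before each gene's start come from RefSeq, build GRCr8, and are written in the direction of transcription. Capitals mark matches to the kB motif, GGG followed by any 3 bases and TTCC, on either strand.
Cxcl1: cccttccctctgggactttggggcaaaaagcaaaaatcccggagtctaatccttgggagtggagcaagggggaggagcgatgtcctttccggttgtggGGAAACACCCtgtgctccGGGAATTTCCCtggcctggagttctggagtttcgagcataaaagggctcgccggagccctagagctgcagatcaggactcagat
Cxcl2: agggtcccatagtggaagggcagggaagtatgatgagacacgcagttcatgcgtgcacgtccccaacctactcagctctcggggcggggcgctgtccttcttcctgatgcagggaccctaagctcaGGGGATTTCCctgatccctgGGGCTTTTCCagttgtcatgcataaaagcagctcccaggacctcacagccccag
Nfkbia: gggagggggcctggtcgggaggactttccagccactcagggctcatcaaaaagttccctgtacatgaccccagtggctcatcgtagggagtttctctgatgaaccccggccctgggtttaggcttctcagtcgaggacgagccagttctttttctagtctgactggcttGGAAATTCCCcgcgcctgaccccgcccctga
Cxcl1 lies at chr14:17479322-17479521 (minus strand), Cxcl2 at chr14:17467256-17467455 (minus strand) and Nfkbia at chr6:78597073-78597272 (minus strand). In Cxcl1 the matches start at -102, -84 and -83 from the gene's start, the last 2 overlapping on opposite strands, in Cxcl2 at -74 and -54, and in Nfkbia at -31. The motif was present in 9 of the 15 chemokine ligand genes found in the table (60%), and in 1248 of all 33469 promoters of the same length (3.73%). A match is a run of letters and says nothing of binding in these cells. Nfkbia itself was at 3705 CPM in maternal obesity and 5219 CPM in control, a ratio of 0.710 (0.684 to 0.737).

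Cytokines and feedback genes did not move as 1 block. Il1b was at 2831 CPM in maternal obesity and 3858 CPM in control, a ratio of 0.734 (0.703 to 0.766), while Il1a (51.6 against 49.0 CPM), the receptor antagonist Il1rn (164 against 148 CPM) and Osm (114 against 104 CPM) had ratios within counting error of 1. Tnfsf9, the ligand of the T cell receptor CD137, was at 75.7 CPM in maternal obesity and 217 CPM in control, a ratio of 0.348 (0.278 to 0.435), and Ebi3, a subunit of the interleukin 27 and 35 cytokines, at 63.7 CPM in maternal obesity and 187 CPM in control, a ratio of 0.341 (0.267 to 0.434). Areg, an epidermal growth factor ligand, was at 21.2 against 105 CPM for maternal obesity against control. Il6 and Tnf were near 0, with 4 and 1 UMIs of Il6 and 3 and 4 of Tnf in all members. Among 25 NF-kB feedback and immediate early genes, 3 were higher and 1 lower (21.8% and 7.76% of all measured genes), with a median of -0.03. The higher genes were Fos (451 against 252 CPM), Rel (95.2 against 54.1 CPM) and Ptgs2 (a ratio of 1.51), and the lower one Tnfaip2 (37.9 against 107 CPM). As a list these genes were near the median of all genes, unlike the chemokine ligands.

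Of 13 oxidant genes 0 were higher and 4 lower in maternal obesity members, with a median log2 ratio of -0.29. Adhesion genes gave 2 higher and 2 lower of 15 (median 0.05). Of all measured genes 21.8% were higher and 7.76% lower. Icam1, an endothelial and leukocyte adhesion ligand, was at 656 CPM in maternal obesity and 1262 CPM in control, a ratio of 0.520 (0.479 to 0.564). Sod2, the mitochondrial superoxide dismutase, was at 879.5 CPM in maternal obesity and 1569 CPM in control, a ratio of 0.561 (0.522 to 0.602). Sod2 was lower in all of S0 to S4, with 1115 against 2138 CPM in S0 and 556 against 1498 CPM in S2 for maternal obesity against control. Nqo1, a quinone reductase, had a ratio of 0.417 (0.342 to 0.508). Hmox1, haem oxygenase, was at 79.7 CPM in maternal obesity and 549 CPM in control. However, 62.6% of the maternal obesity and 79.2% of the control Hmox1 UMIs lay in 1 cell of each library. The transcription factors Atf4 (463 against 922 CPM) and Ddit3 (76.9 against 196 CPM) and the endoplasmic reticulum gene Herpud1 (106 against 203 CPM) were the 3 lower genes of 15 in the unfolded protein response list, whose median was 0.03. Atf4 was lower in all of S0 to S4, and in C1q cells it was at 396 CPM in maternal obesity and 677 CPM in control. The chaperones of the same list, such as Hspa5 (875 against 796 CPM) and Hsp90b1 (517 against 470.5 CPM), stood within 1.5-fold.

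Recognition receptors of bacterial products gave 2 higher and 5 lower of 19 genes, with a median of -0.24. For this list and those that follow, 21.8% of all measured genes were higher and 7.76% lower. Cd14, the lipopolysaccharide co-receptor, was at 416 CPM in maternal obesity and 668 CPM in control, a ratio of 0.622 (0.559 to 0.693). Pglyrp1, a peptidoglycan-binding granule protein, was at 165 CPM in maternal obesity and 325 CPM in control, and Irak3, a brake on Toll-like receptor signals, at 63.1 CPM in maternal obesity and 129.6 CPM in control. Clec4e, a receptor for mycobacterial lipid, was at 20.7 against 44.9 CPM and Tlr7 at 44.8 against 73.5 CPM for maternal obesity against control, while Tlr2 (134 against 129 CPM) and Nlrp3 (608 against 547 CPM) were close. Interferon response genes gave 1 higher and 5 lower of 14, with a median of -0.39. The lower ones were Isg15 (8.61 against 28.6 CPM), Ifit3 (9.18 against 35.7 CPM), Irf7 (16.6 against 29.6 CPM), Oasl (40.2 against 102 CPM) and Gbp2 (124 against 198 CPM), and the higher one was Ifitm3 (77.5 against 10.2 CPM), which was seen in 6.22% and 1.89% of members. In C1q cells the same genes had a median of 0.05. Proliferation genes gave 0 higher and 6 lower of 21, with a median of -0.34, among them Tk1 (57.4 against 111 CPM) and Mcm3 (33.8 against 60.2 CPM).

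Ctss, Fn1 and Ahnak were among the genes higher in maternal obesity members and seen in many cells. They were taken from 2405 genes with a UMI in at least 30% of members of 1 library, a filter chosen after the values had been seen, and the 12 at each end were read. Ctss, the cathepsin that trims the invariant chain, was at 345 CPM in maternal obesity and 152 CPM in control, a ratio of 2.27 (1.90 to 2.74), with 592 against 198 CPM in S0 and 459 against 228 CPM in S3 for maternal obesity against control, and 2 UMIs in S2 of each library. It was higher in C1q cells too, at 587 CPM in maternal obesity and 212 CPM in control. Fn1, fibronectin, was at 1353 CPM in maternal obesity and 714 CPM in control, a ratio of 1.89 (1.74 to 2.06), with 1205 against 624 CPM in S0 and 2649 against 1649 CPM in S1 for maternal obesity against control. Its level in C1q cells was 82.3 CPM in maternal obesity and 66.2 CPM in control. Ahnak, a large scaffold protein of the plasma membrane, was at 291 CPM in maternal obesity and 113 CPM in control, a ratio of 2.57 (2.09 to 3.19), and in C1q cells at 63.0 CPM in maternal obesity and 58.1 CPM in control. The intervals of the C1q cell ratios included 1 for Fn1 and Ahnak. Whether members and C1q cells differ in this was not tested.

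Slpi, the secretory leukocyte protease inhibitor, was at 2361 CPM in maternal obesity and 1254 CPM in control, a ratio of 1.88 (1.77 to 2.01), but with each cell weighted equally the log2 ratio was 0.15 instead of 0.91, and 22.5% of its maternal obesity UMIs lay in 1 cell. Timp2, an inhibitor of matrix metalloproteinases, was at 99.3 CPM in maternal obesity and 45.9 CPM in control, a ratio of 2.16 (1.55 to 3.07), and Vegfa, the vascular growth factor, at 98.1 CPM in maternal obesity and 49.0 CPM in control. Lgals1, the lectin galectin 1, was at 246 CPM in maternal obesity and 118 CPM in control, and Anxa3, an annexin of neutrophil granules, at 216 CPM in maternal obesity and 129 CPM in control. The other genes at the higher end of this filter were Tmed5, Hnrnpa2b1, Sptbn1, Macf1, Esyt1, App and Nedd4. At the lower end, besides genes named above, were Lilrb2, Tfec, Arl5c, RT1-A1 and the goblet cell gene Agr2. Many of these gaps were not particular to members. In C1q cells 7 of the 12 higher and 12 of the 12 lower genes were also past 1.5-fold in the same direction. In epithelial cells this held for 3 higher and 6 lower genes, with Ccl3 and Arl5c barely seen there. RT1-A1, a class I histocompatibility gene, was at 9.75 CPM in maternal obesity and 296 CPM in control, and its near-identical family members make this count uncertain. Arl5c, an ARF-like small GTPase, was at 325 CPM in maternal obesity and 788 CPM in control, a ratio of 0.412 (0.369 to 0.460).

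**Figure D4:**
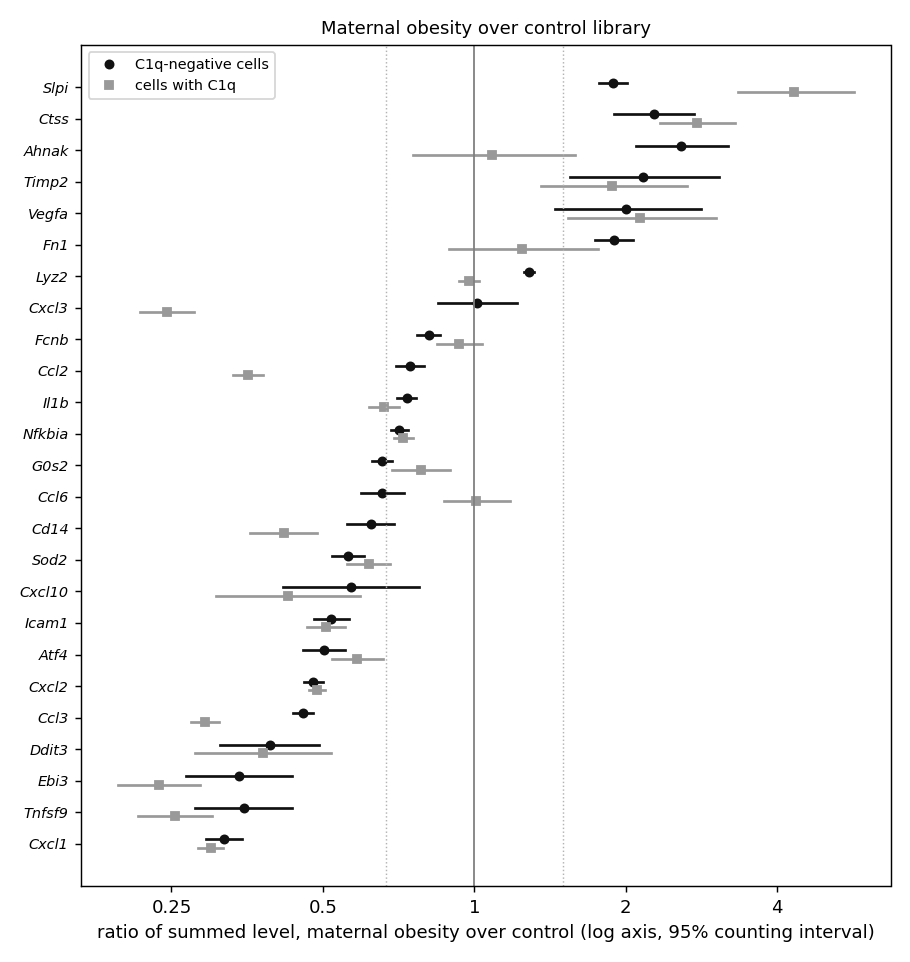
Ratio of maternal obesity over control on a log axis for 25 genes, in C1q-negative cells (black circles) and C1q cells (grey squares), with bars for 95% counting intervals and dotted lines at 1.5-fold. Cxcl1 (0.318 in members), Ccl3 and Cxcl2 lie left of 1 in both populations and Ctss (2.27) right of it, while Fn1 and Ahnak lie right of 1.5 in C1q-negative cells alone and Cxcl3 left of 1 in C1q cells alone.

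Granule and neutrophil genes were uneven across cells. Secondary and tertiary granule genes gave 1 higher and 7 lower of 12 (21.8% and 7.76% of all measured genes), with log2 ratios between -13.57 and 4.61. Mmp8 was at 184 CPM in maternal obesity and 389 CPM in control, a ratio of 0.472 (0.406 to 0.549), and Mmp9, a gelatinase, at 75.7 CPM in maternal obesity and 158 CPM in control, a ratio of 0.479 (0.377 to 0.608). Most UMIs of both genes lay in S2 (89.3% for Mmp8 and 84.0% for Mmp9), which held 23 maternal obesity and 36 control cells, and within S2 the gaps were smaller: Mmp8 was at 3389 against 4296 CPM, a ratio of 0.789 (0.670 to 0.927), and Mmp9 at 1284 against 1672 CPM for maternal obesity against control. Cebpe, the transcription factor of secondary granules, was at 28.1 against 54.1 CPM for maternal obesity against control, while Chi3l1 (526 against 419 CPM), Camp (678 against 824 CPM) and Lcn2 (173 against 158 CPM) stayed within 1.5-fold. Within S2 all 3 were higher in maternal obesity. The ratio was 2.59 (2.31 to 2.89) for Camp, 2.34 (1.91 to 2.88) for Lcn2 and 1.55 (1.24 to 1.93) for Chi3l1. In S1 the ratio of Camp was 0.0585 (0.0405 to 0.0824), from 38 maternal obesity and 266 control UMIs. A single control member held 246 Camp UMIs, so this S1 ratio may describe 1 cell. The neutrophil defensin genes RatNP-3b, Np4 and Defa5 and the myeloperoxidase gene Mpo were almost wholly the product of 1 control cell of S1 with 19055 UMIs, which held 3428 of 3428 RatNP-3b UMIs and 90 of 91 Mpo UMIs. Ngp, a neutrophil granule protein, was at 610.4 CPM in maternal obesity and 24.5 CPM in control in 6 and 1 cells, all in S2. Values of these genes describe single cells and not the members at large.

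Mature neutrophil genes gave 1 higher and 5 lower of 13 (21.8% and 7.76% of all measured genes), with a median of -0.34. S100a9 was at 8614 CPM in maternal obesity and 14380 CPM in control, a ratio of 0.599 (0.585 to 0.613), and S100a8 at 3904 CPM in maternal obesity and 4435 CPM in control, a ratio of 0.880 (0.847 to 0.914). Within S2 S100a9 was at 139803 against 135411 CPM for maternal obesity against control, a ratio of 1.03 (1.01 to 1.06), and S100a8 at 60239 against 39606 CPM, a ratio of 1.52 (1.45 to 1.59). With S0 to S4 weighted equally the log2 ratio of S100a9 was 0.01, against -0.74 over all members. Retnlg, a resistin-like protein, was at 71.1 CPM in maternal obesity and 286 CPM in control, Cxcr2 at 41.3 CPM in maternal obesity and 78.6 CPM in control and the decoy receptor Il1r2 at 77.5 CPM in maternal obesity and 151 CPM in control. Within S2 Retnlg was at 1416 against 2903 CPM, Cxcr2 at 569 against 755 CPM and Il1r2 at 437 against 743 CPM for maternal obesity against control, smaller gaps than over all members. In S2 Il1b was at 1641 against 5806 CPM, Cxcl2 at 1271 against 4331 CPM and G0s2 at 1310 against 4076 CPM for maternal obesity against control. Within S2 these 3 genes were lower in maternal obesity and calprotectin genes were not.

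The promoter of Mmp8 is shown as an example of this granule group, whose genes are known targets of the C/EBP factors. Capitals mark matches to TTGCNNAA on either strand, in the 200 bases before the gene's start at chr8:13008690-13008889 (plus strand), build GRCr8 from RefSeq, at -101 and -46.
Mmp8: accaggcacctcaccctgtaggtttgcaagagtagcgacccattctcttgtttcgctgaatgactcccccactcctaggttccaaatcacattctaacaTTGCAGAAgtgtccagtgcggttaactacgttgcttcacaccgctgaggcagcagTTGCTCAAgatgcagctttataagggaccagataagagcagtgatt
The motif was present in 6 of 13 granule genes found in the table (46.2%), and in 2396 of all 33469 promoters of the same length (7.16%).

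The other lists are given by their counts and medians. Over all 7838 measured genes 21.8% were higher and 7.76% lower, with a median of 0.12, and several of the counts below lie near these shares. Monocyte genes gave 4 higher and 1 lower of 15 (median 0.14), with Fn1, Klf4 (47.0 against 29.6 CPM), Clec4a3 (28.1 against 11.2 CPM) and Ifitm3 higher and Cd14 lower. Dendritic cell and MHC class II genes gave 1 higher and 0 lower of 11 (median 0.30), with Cd74 at 4584 CPM in maternal obesity and 3756 CPM in control. Macrophage genes other than C1q gave 1 higher and 2 lower of 8 (median 0.00). Lysosome genes gave 1 higher and 0 lower of 17 (median -0.03), and in this list Lyz2 had a ratio of 1.28 (1.25 to 1.31). Fc and phagocytic receptors gave 1 higher and 2 lower of 15 (median 0.25), with the integrin gene Itgam at 129 against 83.7 CPM. Colony-stimulating factor and cytokine receptors gave 2 higher and 1 lower of 16 (median 0.22), with Csf1r at 482 against 348 CPM. Chemoattractant receptors gave 1 higher and 3 lower of 11 (median -0.04). Lipid genes gave 4 higher and 3 lower of 17 (median 0.02) and glycolysis and hypoxia genes 4 higher and 0 lower of 17 (median -0.04). Matrix genes gave 4 higher and 3 lower of 12 (median 0.25), S100 and annexin genes 2 higher and 1 lower of 12 (median 0.20), and myeloid transcription factors 2 higher and 2 lower of 16 (median 0.03), among them the hypoxia factor Hif1a at 119 against 78.6 CPM.

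Transcripts of other cell types moved with the libraries. Epithelial genes outside the rule gave 0 higher and 6 lower of 8 (median -1.25), beside 21.8% higher and 7.76% lower of all measured genes. Fibroblast and muscle genes gave 6 higher and 3 lower of 11 (median 1.98), with Col1a1 at 282 CPM in maternal obesity and 38.8 CPM in control, and 43.2% of its maternal obesity UMIs lay in 1 cell. All 11 maternal obesity and 2 control cells of S5 held Col1a1 UMIs, at 3575 CPM in maternal obesity cells and 1544 CPM in control cells. Enteric neuron and glia genes gave 3 higher and 0 lower of 3 (median 2.34), and endothelial genes 0 higher and 0 lower of 3 (median -0.08). Erythroid genes gave 2 higher and 3 lower of 6 (median -0.30), with Hbb at 6812 CPM in maternal obesity and 4134 CPM in control, of which 60.4% and 97.4% lay in 1 cell of each library. The genes whose intervals lay farthest from 1 included Gal, Ccl11, Tcf21, Col3a1, Col6a1, Col6a2, Igfbp5 and Ptn, higher in maternal obesity, and Ahsp, Actg2, Akr1b8, Chac1, Mt1 and Defa11, lower. In maternal obesity 96.3% of the Gal and 93.0% of the Ccl11 UMIs lay in 1 cell. All control UMIs of Ahsp (157) and of Defa11 (69) lay in 1 cell for each gene. The 2 control cells of S5 held 372 Actg2 UMIs. Values of Gal, Ccl11, Ahsp, Defa11 and Actg2 thus describe very few cells. The part of all these genes in the other lists was not tested.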

How the data were processed

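The deposited values are UMI counts per gene and barcode, with no normalisation by the authors seen in the values. The program that made them is Cell Ranger 2.1.1 per the submitters' processing notes, but cellranger 6.1.2 per the file headers. The name of a genome build was not given in the sources used here. The 2 libraries held 30400 gene identifiers under 28116 symbols, and counts of identifiers that shared a symbol were added. Of 491 listed symbols 469 were matched directly, 1 through RefSeq, and 21 were not analysed here. The members and the 35 gene lists were chosen with earlier results of these data known.

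UMIs of a group of cells were summed and scaled to 1000000 (CPM). Ratios have exact conditional binomial 95% intervals, shares Clopper-Pearson intervals. Genes counted as measured with at least 20 UMIs, and as higher or lower past 1.5-fold with 0.5 UMI added to each sum. Lists are described by counts and medians beside those of all measured genes. Sub-clusters came from scanpy 1.11.5 (1000 variable genes, 15 principal components, 10 neighbours, Leiden resolution 0.6), and a sub-cluster took a name only from listed markers. Doublets were called with Scrublet at 0.8% per 1000 barcodes, a call rate too low to be relied on, and were not removed. The ratio code was tested on simulated data. Python 3.11.15, numpy 2.4.6, scipy 1.17.1, pandas 2.3.3, matplotlib 3.10.9 and R 4.3.3 with edgeR 4.0.16 (TMM factors only) were used.

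Named genes were the 12 in each direction with the interval bound farthest from 1 among genes with at least 50 UMIs (mitochondrial, ribosomal, haemoglobin and sex-linked genes left out), between the libraries and against C1q cells, the 6 markers, the 5 most abundant members of each list and any listed member past 1.5-fold, and the 10 leading genes of each sub-cluster. The text draws the examples that describe each group from these. The filter on 30% of members was added after the values were seen, as were the alternatives that left out S5, weighted S0 to S4 equally, or kept S0 and S1 only. The other alternatives varied the mitochondrial, gene, Lyz2, C1q and epithelial limits, the doublets, the scaling, the weight of cells, the UMI minimum, the fold, the thinning and the clustering. A few genes that the rule would name are not reported here.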

Additional observations from a re-analysis of the deposited data

Results flagged for a closer look

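For 9 genes the log2 ratio of members over C1q cells had opposite signs in the 2 libraries, and in each case the difference was not tested. Ccl2 was at 0.45 in maternal obesity and -0.62 in control, with 32.8% of its control member UMIs in 1 cell. Areg was at -1.68 in maternal obesity and 1.46 in control. Il1r2, the decoy receptor of interleukin 1, was at -0.43 and 0.69, and Tbc1d4, a regulator of glucose transporter traffic, at -0.53 and 1.05. Hmox1 was at -1.40 and 0.79, and 79.2% of its control member UMIs lay in 1 cell. The fibroblast genes Col1a1 (1.91 and -1.61), Col3a1 (1.68 and -2.00) and Dlk1 (1.41 and -1.77) were higher in members in maternal obesity and lower in control. Ahsp, an erythroid chaperone, was at -4.51 and 2.85.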

How the results depend on the processing

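Each group is 1 library, doublet calls fell well short of the expected rate, and depth limits all genes seen in few cells. No paired analysis was possible because each group holds 1 library and the 2 share no replicate number. Over 20 alternatives the log2 ratio of maternal obesity over control stayed between -1.88 and -0.38 for Cxcl1, -1.20 and -0.39 for Cxcl2, -1.28 and -0.09 for Ccl3, -0.97 and -0.60 for Sod2, -1.13 and -0.86 for Atf4, 1.04 and 1.39 for Ctss, 0.66 and 2.87 for Fn1, and 1.06 and 1.43 for Ahnak. It turned for G0s2 to 0.048 without any epithelial gene, for S100a9 to 0.46 with at least 1000 genes per cell, 0.34 without any epithelial gene and 0.011 with sub-clusters weighted equally. In S0 and S1 alone the maternal obesity log2 ratio of members over C1q cells turned to -2.36 for Stfa3, -3.44 for Stfa2l1, -6.79 for Stfa2, -0.043 for Mmp8 and -0.78 for Lcn2, and the ratio between libraries to -0.93 for Ngp. These values rest on the 0.5 UMI added to each sum, since maternal obesity cells of S0 and S1 held 0 UMIs of these genes, except 2 of Mmp8. Without any epithelial gene the ratio of member shares was 2.67, 489 genes were higher between libraries, and 144 were higher and 65 lower than in C1q cells. A minimum of 50 UMIs gave 815 higher and 336 lower genes between libraries and 323 and 286 against C1q cells. No minimum gave 4880 and 2129, and 1296 and 1301. A 2-fold threshold gave 743 and 194, and 261 and 210. S0 and S1 alone gave 917 higher genes between libraries and 839 lower than in C1q cells, scaling by the median of ratios 927 lower genes, and the rule after thinning to 3000 UMIs 340 lower than in C1q cells. Thinned to 1000 UMIs, shares of members with a UMI in maternal obesity and control were 58.9% and 53.2% for Fcnb, 44.0% and 63.9% for Ccl3, with 82.3% for Il1b and 68.4% for Cxcl2 in control. Unthinned shares were 100% and 100% for Lyz2, and 87.1% (Il1b), 66.5% (Ccl3), 56.9% (G0s2) and 71.3% (Cxcl2) in maternal obesity. At Leiden resolution 1.0 there were 11 sub-clusters. The cause was not tested.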

Other observations

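Of the lipid genes 4 were higher and 3 lower of 17, and of the glycolysis and hypoxia genes 4 were higher and 0 lower of 17, beside 21.8% higher and 7.76% lower of all measured genes. Abca1, a cholesterol exporter, was at 72.3 CPM in maternal obesity and 112 CPM in control, a ratio of 0.644 (0.495 to 0.839). Hk2, a hexokinase, was at 43.6 CPM in maternal obesity and 26.5 CPM in control, a ratio of 1.64 (1.04 to 2.67), and the lactate carrier gene Slc16a3 at 198 CPM in maternal obesity and 129 CPM in control, a ratio of 1.54 (1.25 to 1.90). The abundant glycolytic genes Ldha (1162 against 1088 CPM for maternal obesity against control) and Pkm (1232 against 1280 CPM) were within 1.5-fold. Cpt1a, Pparg, Lpl and Pfkp lay past 1.5-fold with intervals that included 1.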
